A study of Mus musculus with 36 samples.

Results

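The beta-defensin genes were followed through the messenger RNA of mouse spermatozoa and of embryos sired after a paternal diet challenge. A gene was counted as a member if its symbol was Defb followed by digits, with pseudogenes left out, and 42 of the 54838 genes in the sperm table met this rule. All 42 were also among the 55487 genes of the morula table. Beta-defensins are small cationic peptides that are secreted by epithelia, fold around conserved pairs of cysteines and damage microbial membranes. Many of them are made in the epididymis, the duct in which sperm mature and are stored, and several bind to the sperm surface, where they take part in motility, immune shielding and passage through the female tract. Mature spermatozoa have a compacted nucleus with little transcription.

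Sperm were collected from C57BL/6 wildtype males (C57BL/6N in the study's methods) that had been given a High Fat Diet (HFD) or a Low Fat Diet (LFD) for 2 weeks from 6 weeks of age. There were 3 libraries for each diet. Sperm were let out of the cauda epididymis and vas deferens, allowed to swim up and treated with a lysis buffer for somatic cells. The study checked an aliquot by microscope and used only samples in which no somatic cell was visible. Secretions and fragments from the duct could still be present. Morulae, the compacting embryos that precede the blastocyst, came from in vitro fertilisation with sperm of males on either diet, again with 3 libraries for each diet, and are called HFD and LFD morulae after the father. Sperm libraries are named below by the letter and number of their table column, h for HFD and l for LFD, because these numbers are not those of the sample titles. No source states that the libraries of a diet came from separate males or pools, so p-values measure only the spread between these libraries.

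The sperm libraries held 2560219 to 4062321 counts assigned to genes. Transcripts encoded in mitochondrial DNA (mtDNA) took 78.1 to 84.3% of the counts in HFD sperm and 43.5 to 64.7% in LFD sperm. Markers of late male germ cells (Prm1, Prm2, Tnp1, Tnp2, Odf1, Akap4 and Smcp) were all present and summed to 5599 to 10841 CPM (counts scaled to a library total of 1000000) in HFD sperm and 4294 to 10006 in LFD sperm. Markers of epididymal principal cells summed to 2268 to 4619 CPM in HFD and 5847 to 37816 CPM in LFD sperm, with 16 of 18 present and Lcn9 and Lcn10 at 0. Crisp1 and Spink8 held most of these counts, with 113287 and 41288 over the 6 libraries. Crisp4, Lcn8, Lcn5 and Cst12 had no more than 6 counts each. The library l4000 stood apart by its low mtDNA share and its high level of principal-cell markers.

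The 42 genes lie in groups on 4 chromosomes of the GRCm38 build. On chromosome 8, 14 genes stand between 18974940 and 19497775 and 9 between 21776599 and 21948850, with Defb33 alone between them. Chromosome 2 carries 11 genes from 152459055 to 152623053, chromosome 14 carries 5 from 62977524 to 63058149, and Defb18 and Defb41 lie together on chromosome 1. The GENCODE vM21 annotation gives all 42 a coding sequence, of 174 to 561 bases with a median of 219. It is carried by 2-exon transcripts in 37 genes and by 3-exon transcripts in 5. All 42 have a pair of adjacent cysteine codons, which is the last pair of cysteines in 38, and 41 have at least 6 cysteine codons.

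The coding sequences of the 6 genes that made up most of the family's sperm RNA are printed because they show the cysteine frame that the family shares and the places where its members are alike. They are spliced, read 5′ to 3′ from start to stop codon, and come from GENCODE vM21 on GRCm38, with in-frame cysteine codons in capitals. Defb28 lies at chr2:152518267-152521332 (+), Defb2 at chr8:21839959-21843426 (+), Defb43 at chr14:63011810-63017929 (+), Defb11 at chr8:21905426-21906379 (-), Defb40 at chr8:18974967-18978116 (-) and Defb9 at chr8:21881792-21885394 (-), these being the spans from start to stop codon with the introns included.
Defb28: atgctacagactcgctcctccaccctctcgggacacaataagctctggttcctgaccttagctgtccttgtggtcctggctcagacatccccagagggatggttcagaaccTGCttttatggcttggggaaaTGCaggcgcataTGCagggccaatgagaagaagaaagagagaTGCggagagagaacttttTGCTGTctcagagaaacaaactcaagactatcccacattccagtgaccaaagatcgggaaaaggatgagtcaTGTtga
Defb2: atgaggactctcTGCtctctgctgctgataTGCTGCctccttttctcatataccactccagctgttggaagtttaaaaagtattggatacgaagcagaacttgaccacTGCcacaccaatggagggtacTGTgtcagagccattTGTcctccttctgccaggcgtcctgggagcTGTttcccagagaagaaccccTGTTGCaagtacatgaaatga
Defb43: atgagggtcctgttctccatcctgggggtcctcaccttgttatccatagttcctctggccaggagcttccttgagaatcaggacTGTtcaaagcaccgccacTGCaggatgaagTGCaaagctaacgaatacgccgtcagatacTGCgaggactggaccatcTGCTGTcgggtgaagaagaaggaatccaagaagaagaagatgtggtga
Defb11: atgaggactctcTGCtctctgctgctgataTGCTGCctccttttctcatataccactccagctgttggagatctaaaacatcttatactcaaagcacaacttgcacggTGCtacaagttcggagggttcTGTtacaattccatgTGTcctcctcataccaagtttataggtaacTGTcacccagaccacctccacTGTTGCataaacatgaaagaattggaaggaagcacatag
Defb40: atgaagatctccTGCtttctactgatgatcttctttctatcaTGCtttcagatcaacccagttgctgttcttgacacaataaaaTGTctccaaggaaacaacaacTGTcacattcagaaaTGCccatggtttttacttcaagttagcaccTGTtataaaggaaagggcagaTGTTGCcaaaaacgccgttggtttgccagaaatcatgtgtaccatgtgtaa
Defb9: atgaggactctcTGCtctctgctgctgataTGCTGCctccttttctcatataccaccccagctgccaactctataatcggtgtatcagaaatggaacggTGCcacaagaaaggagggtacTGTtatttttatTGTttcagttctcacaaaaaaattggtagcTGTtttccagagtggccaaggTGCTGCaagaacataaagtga

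Defb2, Defb11 and Defb9, neighbours on chromosome 8, each have 9 cysteine codons and open with the same stretch of secretion signal. Defb43 has 6, which is the number of the defensin fold itself, and Defb28 is the one of the 6 genes whose coding sequence goes on past the final cysteine pair to a further cysteine codon near the stop. This likeness limits how well reads can be assigned. Among the 861 pairs of members, 4 shared an identical run at least as long as the 75-base sperm reads. The longest, of 102 bases, joined Defb11 and Defb2, runs of 83 bases joined Defb10 to each of them, and one of 75 bases joined Defb10 to Defb9. The counts of these 4 genes are therefore uncertain to the extent that reads fell in those runs.

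In sperm, 30 of the 42 genes had at least 1 count and 12 had none in any library. The silent ones included Defb3, Defb4, Defb5, Defb7 and Defb8 of chromosome 8, some of which are inducible in airway and skin. A count of 0 in a library allows a level of up to 0.738 to 1.17 CPM, which is 3 counts of its total, and such limits cover counting error only. Of the 30 genes, 19 had 10 or more counts over the 6 libraries and 11 of the 42 had a count in every library. All 9 genes of the second group on chromosome 8 and all 5 on chromosome 14 had a count, against 6 of the 14 in the first group on chromosome 8.

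The family summed to 1045 counts in h1000, 1934 in h3000 and 408 in h4000. It summed to 3056 counts in l1000, 4014 in l2000 and 4698 in l4000. The HFD libraries were thus all below the LFD libraries in number of counts, although their totals were on average larger. As a share of the library total these were 349, 476 and 111 CPM in HFD sperm (mean 312 ± 185, SD, n = 3) and 1049, 1316 and 1835 CPM in LFD sperm (1400 ± 400, n = 3; 95% Wilson interval for h4000, 101 to 122 CPM, and for l1000, 1013 to 1087 CPM). As CPM of nuclear counts, that is with mtDNA genes left out of the total, the family stood at 2217, 2174 and 528.8 in HFD sperm and 2865, 3723 and 3246 in LFD sperm. The 2 diets did not overlap on either scale, and h4000 was the lowest library on both. As CPM of the library total, every HFD library was below every LFD library in 57.2% of all genes tested below. For CPM of nuclear counts that share was not computed.

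A few genes carried most of this RNA. Defb28, a member of the chromosome 2 group, was first in every sperm library and ranked 44 to 378 among all nuclear genes. It had 299, 588 and 162 counts in h1000, h3000 and h4000 and 1172, 1579 and 1379 in l1000, l2000 and l4000. Every LFD library therefore had more Defb28 counts than every HFD library. As CPM of the library total this order of the diets was found in 57.2% of all genes that passed the filter described below, so it was the general pattern of these libraries.

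Defb2, which in mouse epithelia is inducible by bacterial products, came next, with 271, 508 and 90 counts in the HFD and 656, 951 and 1111 in the LFD libraries. Defb43 had 200, 207 and 64 counts against 458, 417 and 644. Defb11 had 76, 204 and 21 counts against 230, 356 and 629. In these 3 genes, too, the lowest LFD library exceeded the highest HFD library, but not on the scale that sets most genes equal, which is given below.

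Defb40, which opens the first group on chromosome 8, had 75, 79 and 8 counts in HFD and 162, 199 and 233 in LFD sperm. Defb9 had 47, 46 and 7 counts in HFD and 136, 168 and 171 in LFD sperm. For both genes h4000 was far below the other HFD libraries.

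**Figure D1:**
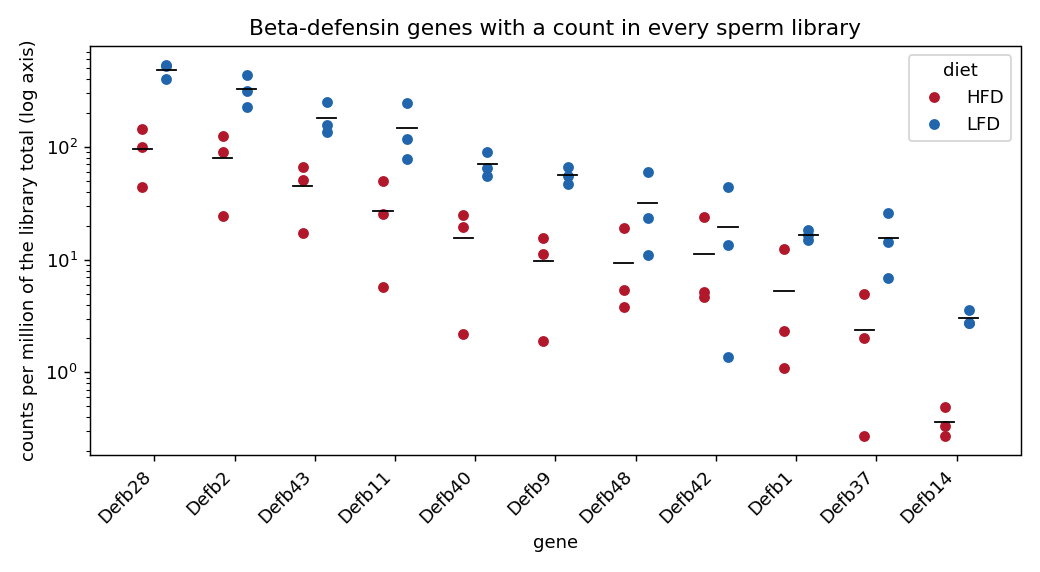
CPM of the library total (log axis) for the 11 beta-defensin genes with a count in every sperm library; points are libraries, black lines the means of 3. The LFD points of Defb28, Defb2, Defb43, Defb11, Defb40 and Defb9 all lie above the HFD points, while those of Defb48 and Defb42 are mixed.

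Below these 6, Defb48 of chromosome 14 had 16, 77 and 14 counts in HFD and 32, 72 and 154 in LFD sperm. Defb42, its neighbour at the other end of that group, had 14, 98 and 19 counts against 4, 41 and 112. Defb1, the constitutive beta-defensin of kidney and airway epithelium, had 7, 51 and 4 counts against 44, 51 and 47. The diets overlapped in counts for all of these, and l1000 held the fewest Defb42 counts of any sperm library.

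Defb37 and Defb38, next to Defb40, summed to 156 and 140 counts over the 6 libraries. Defb47 reached 122 and Defb10 47. Defb26, Defb39, Defb13, Defb14, Defb20 and Defb35, the other genes with 10 or more counts, summed to between 15 and 39 each. Several of them were seen mainly with 1 diet.

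Defb26 had 0, 1 and 0 counts in HFD and 11, 18 and 9 in LFD sperm. Defb13 had no count in any HFD library and 9, 5 and 21 in the LFD libraries. Defb39 had 0, 1 and 2 counts against 14, 10 and 12. In each of Defb26, Defb13 and Defb39 every LFD library held more counts than every HFD library, the order seen in 57.2% of all tested genes as CPM of the library total. Defb14, the counterpart of an inducible human skin defensin, did so too, with 1, 2 and 1 counts against 8, 11 and 7. Defb35 went the other way through a single library, with 15 counts in h3000 and none elsewhere. Defb22, whose primate counterpart coats the sperm head, had 1 count in h4000 and 7 in l4000 and none in the others.

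Per kilobase of gene length, the scale on which genes can be compared with each other, Defb28 led in LFD sperm with 1225 ± 185 CPM per kilobase (SD, n = 3) and Defb2 followed with 1061 ± 344. Defb11 and Defb43 stood at 464 ± 276 and 446 ± 150, Defb40 and Defb9 at 182 ± 47.1 and 181 ± 32.6, and Defb48 at 71.0 ± 57.4. The genes within each of these pairs did not differ beyond their spread, whereas the step from 1 pair to the next exceeded the SD of both genes. In HFD sperm Defb2 (262 ± 168) and Defb28 (242 ± 127) changed places within their spread, and Defb43 (110 ± 61.8), Defb11 (85.5 ± 70.4), Defb40 (40.0 ± 30.6) and Defb9 (31.1 ± 22.7) followed.

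These 6 genes took most of the family's counts in every library. Together they held 92.6, 84.4 and 86.3% of the family's counts in h1000, h3000 and h4000 and 92.1, 91.4 and 88.7% in l1000, l2000 and l4000. Defb28 alone made up 32.9 ± 5.96% in HFD and 35.7 ± 5.50% in LFD sperm (SD, n = 3). The shares of 17 of the 19 genes with 10 or more counts overlapped between diets. The exceptions were Defb26 and Defb13, with 39 and 35 counts over the 6 libraries. An exact two-sided permutation test gave p = 0.1 for both (0.69 after Benjamini-Hochberg adjustment over the 19 genes). This is the smallest p that 3 against 3 libraries allow, and it is fixed once the diets do not overlap. No share over all genes was computed on this scale.

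**Figure D2:**
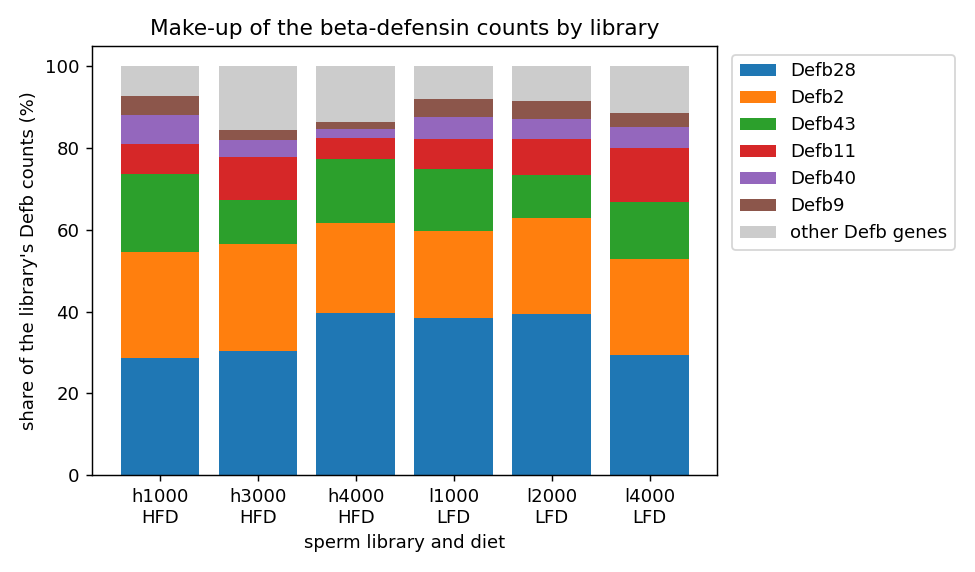
Share of each sperm library's beta-defensin counts (%) taken by the 6 leading genes and by all others together. Defb28 and Defb2 are the 2 largest parts of every bar, and the 6 genes fill 84.4 to 92.6%.

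Whether diet changed single genes was tested with edgeR's quasi-likelihood test over the 8643 genes that passed a filter on low counts, with trimmed mean of M values (TMM) scaling, which sets library sizes so that most genes do not change. The TMM factors were 0.517, 0.716 and 0.442 in h1000, h3000 and h4000. They were 1.52, 1.56 and 2.58 in l1000, l2000 and l4000, so they did not overlap between diets. Of the 42 members 13 passed the filter. None was called at a Benjamini-Hochberg adjusted p under 0.05, and neither was any of all the genes tested (0% called). At an unadjusted p under 0.05, 1 member passed, Defb26, against 13% of all genes. DESeq2 and limma-voom also called 0 members, beside 3.41% and 0% of all genes, and each had 1 member at an unadjusted p under 0.05, beside 15.9% and 14.2%. For DESeq2 that member was Defb26. It gave Defb26 and Defb10 no adjusted p and so could not call them.

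On the TMM scale 11 of the 13 tested members had a lower level in HFD sperm, beside 4573 of all 8643 tested genes. The median log2 fold change of the members was -0.57 (HFD over LFD) beside -0.07 for all tested genes. In the fit without h4000, 10 of the 15 members then tested were lower. Defb28 stood at 193, 202 and 99.5 TMM-scaled CPM in HFD and 265, 332 and 209 in LFD sperm, a log2 fold change of -0.70 (SE 0.48, edgeR adjusted p = 0.579). Its diets did not overlap, and the same held for Defb26 (log2 fold change -3.77, SE 1.38, edgeR adjusted p = 0.281). These 2 of 13 members compare with 12.3% of all tested genes in which every HFD library was below every LFD library.

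For the other leading genes the log2 fold changes were between -0.87 (Defb9, SE 0.63) and -0.27 (Defb43, SE 0.50), with Defb2 at -0.35 (SE 0.51), Defb11 at -0.74 (SE 0.57) and Defb40 at -0.50 (SE 0.63). Each of these differences was less than 1.5 times its SE, and the diets overlapped. Defb42 had the highest value, 1.04 (SE 0.84), and Defb48 was at 0.01 (SE 0.65). Summed over all 42 genes, TMM-scaled CPM was 675, 665 and 251 in HFD sperm and 691, 844 and 711 in LFD sperm, a log2 ratio of the means of -0.50. The HFD values lay just below the LFD values except for h4000, which was far lower; without h4000 the log2 ratio was -0.16, and the median over members was -0.19 beside -0.11 for all tested genes.

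The size of the difference depended on the scaling. When counts were set against library totals with no further scaling, 8 of the 13 tested members were called, all lower in HFD sperm, beside 37.8% of all tested genes, nearly all of them also lower. The called members were Defb26, Defb28, Defb40, Defb37, Defb2, Defb9, Defb11 and Defb43, and Defb28 had a log2 fold change of -2.34 (SE 0.58, edgeR adjusted p = 0.0132). The median over members became -2.14 and that of all tested genes -1.82, so the median of the members lay 0.32 below that of all tested genes on this scale and 0.50 below on the TMM scale. Without h4000 the latter gap was 0.077, so most of it rested on that library. In 11 of the 13 members no HFD library reached the lowest LFD library, beside 57.2% of all tested genes. Defb48 and Defb42 turned from above to below 0. The mtDNA share of counts, higher in every HFD library, moved with this difference in scale, and its part in the result was not tested.

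**Figure D3:**
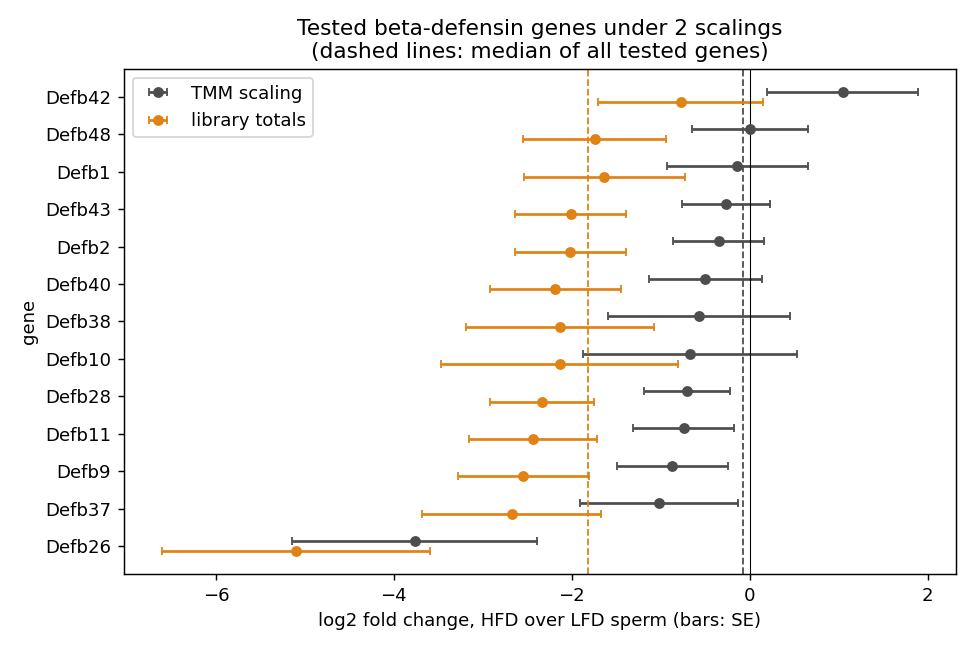
Log2 fold change (HFD over LFD sperm) with its standard error for the 13 tested beta-defensin genes, under TMM scaling (grey) and library totals (orange); dashed lines are the medians of all 8643 tested genes, -0.07 and -1.82. Most members sit slightly to the left of the dashed line of their own scale.

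The 29 members that did not pass the filter were looked at in a fit with no filter, in which 30 members had a count and none was called at an adjusted p under 0.05 (41 of 26903 genes, 0.152%). At an unadjusted p under 0.05 there were 5 members, against 8.22% of all genes: Defb13 and Defb26 with lower, and Defb35, Defb45 and Defb21 with higher values in HFD sperm. Defb45 and Defb21 had 5 counts each in all, and the counts of Defb35 came from 1 library. The rest of the 19 genes with 10 or more counts had adjusted p-values in this edgeR fit between 0.672 and 0.960.

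Other antimicrobial genes and the receptors of beta-defensins were set beside the family. Of the 25 genes on this list 22 had a count and 10 were tested, with 7 lower and 3 higher in HFD sperm and a median of -0.66 on the TMM scale beside -0.07 for all genes; none was called. On library totals all 10 were lower, with a median of -2.35, and 7 were called. Of all 8643 tested genes, 8067 were lower on that scale, the median was -1.82 and 37.8% were called lower. Wfdc16, a whey-acidic-protein-domain protein of the kind that inhibits proteases, had the lowest value (-1.28, SE 0.59, edgeR adjusted p = 0.381) and Wfdc6a the highest (0.38, SE 1.09, edgeR adjusted p = 0.921). Ltf, which encodes the iron-binding protein lactoferrin, was at -1.03 and Lcn2, which binds bacterial siderophores, at 0.00. Camp, which encodes cathelicidin, was at 0 in all 6 libraries.

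Markers of epididymal principal cells had a like median. Of 18 markers 8 were tested, 6 with a lower value, and their median log2 fold change was -0.56, between -0.97 (Spink8, a protease inhibitor) and 3.61 (Cst8, a cystatin); none was called. On library totals 7 of the 8 were lower, with a median of -2.40, and 5 were called. For all tested genes that median was -1.82, and 37.8% were called lower. On the TMM scale the median of -0.56 lay beside that of -0.57 for the tested beta-defensins. In bulk RNA fewer cells of a type and less RNA per cell cannot be told apart, and the part of these markers in the result was not tested.

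Markers of other cells had mostly higher values in HFD sperm on the TMM scale. The late germ cell markers had a median of 1.22, with all 7 above 0 and between 0.92 (Akap4, of the fibrous sheath) and 2.05 (Smcp, of the mitochondrial capsule). Stroma and smooth muscle had 6 of 8 markers tested, all above 0 (median 1.75, from Dcn at 1.07 to Myh11 at 4.12). The muscle genes of this list were high in h3000 alone, where Myh11 had 1112 counts beside 2 and 11 in the other HFD libraries. All 5 erythroid markers were tested and above 0 (2.19, from Alas2 at 1.51 to Hbb-bt at 2.33). Of 9 leukocyte markers 6 were tested, 4 of them above 0 (1.15, from S100a8 at -1.03 to Cd68 at 2.65). Basal and clear cells of the epididymis stood at 0.43 with 5 of 7 markers tested, from Foxi1 at -1.17 to Atp6v1b1 at 1.20. On the TMM scale none of these markers was called by edgeR. DESeq2, with its own size factors, called Odf1, Smcp and the near-identical Hbb-bs and Hbb-bt higher in HFD sperm. It called 295 of all 8643 tested genes (3.41%), 272 of them higher in HFD sperm. The direction turned on library totals for late germ cells (median -0.49, 5 of 7 lower), leukocytes (-0.39, 5 of 6 lower) and basal and clear cells (-1.53, 5 of 5 lower), but not for erythroid cells (0.64) or stroma (0.15). All tested genes had a median of -1.82 on library totals, with 8067 of 8643 lower in HFD sperm. Each of these list medians lay above it. On that scale edgeR called Foxi1, S100a8 and Itgam lower in HFD sperm, beside 37.8% of all tested genes.

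Ratios between genes of the same library do not depend on scaling. For every 100 counts of late germ cell markers there were 4.79, 8.50 and 1.02 beta-defensin counts in HFD sperm (4.77 ± 3.74, SD, n = 3) and 10.5, 19.8 and 42.7 in LFD sperm (24.3 ± 16.6). The diets did not overlap, although the gap between h3000 and l1000 was small beside the spread within either diet. Most counts of this list were those of Smcp and Odf1, with 69090 and 52740 over the 6 libraries. On the TMM scale all 7 late germ cell markers had higher values in HFD sperm. The separation was seen for the summed list only, and ratios to single markers were not computed. The share of all genes that separate in this way against the list was not computed either. Per 100 counts of principal-cell markers there were 11.1, 10.3 and 4.89 in HFD and 17.9, 9.49 and 4.85 in LFD sperm. Per 100 counts of the other antimicrobial genes there were 60.4, 61.1 and 47.1 in HFD and 49.6, 52.3 and 40.3 in LFD sperm. Against both of these lists the diets overlapped.

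**Figure D4:**
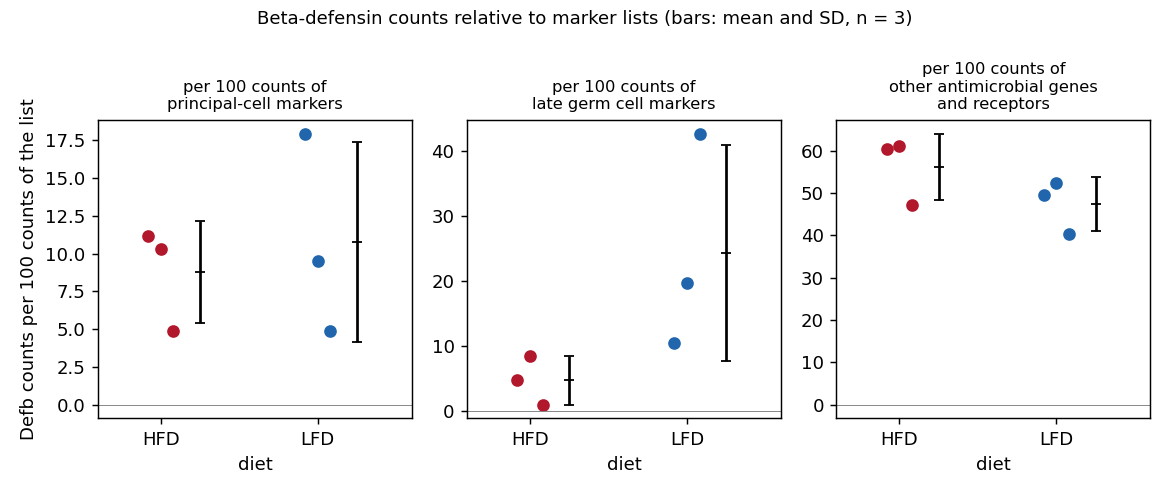
Beta-defensin counts per 100 counts of 3 gene lists in each sperm library, with mean and SD of 3 libraries; each panel has its own axis. Only against late germ cell markers, most of whose counts are Smcp and Odf1, do the HFD points (1.02 to 8.50) stay below the LFD points (10.5 to 42.7). The share of all genes that do so was not computed.

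The windows upstream of the genes were searched for letters that are found in known control elements. RefSeq promoter windows, 250 bases before to 50 after the start, were at hand for 29 of the 42 members (30 windows, GRCm38.p6). AGAACA, the half-site bound by the androgen receptor and its relatives and searched on both strands, was in 18 of the 30 windows, beside 19.0% of all 32851 windows. It was in 8 of the 13 windows of members with 10 or more sperm counts. Members with no sperm count, such as Defb3 and Defb7, had it too. CCAAT on both strands was in 14 beside 37.4%, and TATAAA on the gene's strand in 3 beside 8.32%. The half-site followed after 3 bases by its own reverse complement was in none of the 30 and in 3 of all windows. The windows of the members had a median GC content of 48.3%, beside 52.7% for all windows, and members of a group arose by duplication, so their windows are not independent. A match of letters does not show that a factor binds.

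The 250 bases before the start are printed for Defb28 and Defb43, the leading genes whose RefSeq start is also a GENCODE transcript start, to show 1 window without and 1 with the half-site. They lie at chr2:152518005-152518254 (+) and chr14:63011521-63011770 (+) and read 5′ to 3′, with any AGAACA, its reverse complement TGTTCT or TATAAA in capitals.
Defb28: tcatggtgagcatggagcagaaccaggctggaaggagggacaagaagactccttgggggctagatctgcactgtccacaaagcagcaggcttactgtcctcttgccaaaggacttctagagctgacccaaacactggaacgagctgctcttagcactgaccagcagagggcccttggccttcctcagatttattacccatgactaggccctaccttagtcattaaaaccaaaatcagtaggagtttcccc
Defb43: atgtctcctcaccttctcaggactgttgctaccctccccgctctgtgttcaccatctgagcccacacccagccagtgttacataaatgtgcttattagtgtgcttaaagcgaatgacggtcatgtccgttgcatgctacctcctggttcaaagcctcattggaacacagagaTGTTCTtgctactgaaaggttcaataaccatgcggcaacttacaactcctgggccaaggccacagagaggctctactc

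The single match in the Defb43 stretch lies on the opposite strand to the gene, and the Defb28 stretch has none.

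The family was barely detected in morulae. The libraries held 11471251 to 12153141 counts, so a count of 0 allows at most 0.247 to 0.262 CPM, and 14 of the 42 genes had a count. The family summed to 9, 62 and 66 counts in HFD morulae and to 65, 17 and 22 in LFD morulae, between 0.764 and 5.43 CPM. The diets overlapped. Defb28, Defb2, Defb43, Defb40 and Defb9, 5 of the 6 leading genes of sperm, had no count in any morula library, and Defb11 had 2 counts.

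Defb42 had the most counts and was the 1 member with a count in every morula library, with 5, 14 and 44 in HFD and 3, 12 and 8 in LFD morulae. It was also the 1 member that passed the filter. Its log2 fold change was 1.36 (SE 0.82, edgeR adjusted p = 0.842), and 0% of the 13447 genes tested were called, with 6.38% at an unadjusted p under 0.05. The diets overlapped, and the library with 44 counts stood far above the others.

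Defb19 had 2, 7 and 4 counts in HFD and 1, 0 and 0 in LFD morulae, so its diets did not overlap, as in 12.1% of the tested genes in either direction. It did not pass the filter, and with no filter its edgeR adjusted p was 0.786. Most of the others appeared in scattered libraries. Defb13 had 0, 11 and 6 counts in HFD and 16, 0 and 8 in LFD morulae. Defb30 had 0, 23 and 1 counts against 14, 0 and 1, and Defb22 had 1, 0 and 1 against 25, 0 and 4. None of these showed the same level in the 3 libraries of a diet. Markers of the embryo itself (Pou5f1, Nanog, Cdx2 and Tfap2c) summed to 199 to 260 CPM in all 6 libraries, and 4 of the 7 late germ cell markers were seen, at no more than 0.775 CPM in sum.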

How the data were processed

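The authors deposited raw counts per gene, made from trimmed reads (BBDuk) aligned with STAR to GRCm38 (the build also named in the submitters' processing notes) and counted with featureCounts. Strand and multi-mapping settings are not given in the sources used here. Gene symbols came from the reference table (54723 of 54838 sperm IDs and 55141 of 55487 morula IDs matched). Counts were tested with edgeR 4.0.16 (quasi-likelihood, two-sided, genes kept by filterByExpr at min.count 10, TMM scaling, Benjamini-Hochberg over all tested genes, threshold 0.05) in R 4.3.3. DESeq2 1.42.0 and limma 3.58.1 (voom) were alternatives, as were library totals, other size factors, TMM on nuclear genes, no filter, a replicate block and leaving out each library. The fits were tested on simulated data, with a pass mark set after a first run had recovered too few low-count genes. This mark was limited to genes with a mean of at least 50 counts, which 7 of the 13 tested members reached in sperm. The simulated libraries shared the same make-up apart from the changed genes, whose changes were larger than those of most tested members. The simulation therefore did not check the scaling between these diets or the recovery of smaller changes. The study's own tool for these counts, NOISeq, was not used here. Fold changes are edgeR's, moderated for low counts, and standard errors were derived from the test statistic. The deepest sperm library held 4062321 and the shallowest 2560219 counts. No pair of libraries of 1 diet agreed within sampling noise (chi-square per degree of freedom at least 7.57).

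Groups followed the sample titles and treatments. For 3 morula samples the free-text description names the other diet, so morula directions rest on the titles and the letters of the columns. Columns of the round spermatid, liver, adipose and muscle tables, 24 in all, carry only run numbers that show no sample or group and were not used here.

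Named genes were the members with at least 10 counts summed over the sperm libraries, the member with the most counts in morulae, the highest and lowest tested gene of each list, and, among members with that many counts, the 3 highest and 3 lowest in the fit with no filter. The members and lists were chosen with earlier results of these data known. Members named with fewer counts, the ratios to marker lists and the promoter motifs were chosen after values were seen. Lists of seminal vesicle, hepatocyte, skeletal muscle and embryo markers had no gene tested in sperm; Lipe, the 1 tested adipocyte gene, had a log2 fold change of 1.22, and of the Sertoli and Leydig genes Sox9 had -0.11 and Star 1.90.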

Additional observations from a re-analysis of the deposited data

How the results depend on the processing

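In sperm no beta-defensin gene was called by edgeR with other size factors, with TMM on nuclear genes or with no filter. None was called by DESeq2, by limma-voom or when any 1 library was left out. Plain totals of nuclear counts were not used in a test. In morulae none was called under any alternative run. There DESeq2 gave the 1 tested member, Defb42, no adjusted p and so could not call it. In sperm DESeq2 could likewise not call Defb26 and Defb10. Library totals gave 8 called members, a median log2 fold change of -2.14 and a summed log2 ratio of -2.17 while the median of all tested genes moved to -1.82, and an unadjusted p under 0.05 gave 1 member. As CPM of nuclear counts the summed log2 ratio was -0.999, against -0.50 under TMM; leaving out a library gave -0.72 to -0.16 for this ratio and -0.89 to -0.19 for the median, the last of each without h4000. Direction turned for Defb48 (library totals -1.74, no filter -0.14, replicate block -0.47, single libraries left out -0.70 to 0.47) and Defb42 (library totals -0.77), and when a library was left out for Defb1 (-1.42 to 0.28, without h1000 or h4000), Defb2 (-0.59 to 0.019, without h4000), Defb43 (-0.81 to 0.050, without h4000) and Defb38 (-1.52 to 0.12, without l1000); the cause was not tested. With the column number as a replicate block, which leaves 2 pairs, 0 members were called and the median was -1.20; same-numbered libraries deviated from their diet means with correlations of 0.10 and -0.13, and nothing says that the numbers pair the samples. For morulae no paired analysis was possible because their columns share no number between diets. Depth limits the genes under the filter. The comparisons of sperm with round spermatids and of adipose tissue with liver and muscle were not run.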
